A study of Mus musculus with 8 samples.

Results

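The Bcl-2 family decides whether a cell opens its mitochondrial outer membrane and dies. Its pro-survival members, which include Bcl-2, Bcl-XL, Mcl-1 and A1 (named Bfl-1 in human), hold back the effectors Bax and Bak. BH3-only proteins such as Bid, Bim and Puma bind the pro-survival members or activate the effectors, and in B-lineage cells the balance among them sets survival when cytokine or receptor signals fade. A1 is transcribed mainly in cells of the blood lineages, myeloid cells among them, and its mouse locus holds several near-identical gene copies.

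The members examined here were Bcl2a1a, Bcl2a1b, Bcl2, Bcl2l1, Mcl1, Bax, Bak1, Bid, Bcl2l11 and Bbc3. They were taken as every probe set (the group of oligonucleotide probes that reads 1 transcript or several related ones) whose platform symbol is or includes one of these names, together with probe set 1419004_s_at. Of the 10 genes, 9 had a probe set, Bax was not analysed here, and the 9 genes had 24 probe sets among the 22626 non-control probe sets of 12393 named genes.

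The arrays compared splenic tumors of 3 mice, named tumor 1, tumor 2 and tumor 3, with the parental cell line from which they arose. The parental line is FL5.12, an IL-3-dependent mouse pro-B line, stably transfected with Bfl-1DC, a construct of Bfl-1, and with p53DD, a dominant-negative fragment of p53. Tumor cells came from the spleens of nude mice that had received these cells intravenously and developed leukemia or lymphoma. Each tumor and the parental line was hybridised to 2 arrays, 8 in all, on the Affymetrix Mouse Genome 430A 2.0 platform. Both constructs were in the injected cells, so the design holds no group derived from cells without them. Whether the tumor samples still expressed them was not tested. The labels give neither the age of the mice nor whether the stable transfectant is 1 clone, and they do not settle whether the tumor cells were cultured before RNA was taken. Nude mice lack a normal thymus but keep their own B cells and myeloid cells, so a spleen can hold host cells beside injected ones.

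Values are the authors' MAS5 signals, a linear intensity scaled alike on every array. The mean over all probe sets after 2% was trimmed at each end was 150.1 on each of the 8 arrays, the median signal lay between 32.5 and 37.9, and the 40th percentile between 15.6 and 20.7. Probe sets were tested if they exceeded the 40th percentile of their own array on at least 2 arrays, which 14893 did. The number of arrays limits the precision. Markers of the labelled pro-B cell were sparse: of 10 such genes with a probe set, Ebf1, Dntt, Vpreb1, Rag1 and Blnk did not exceed the 40th percentile on any array, and Pax5, Il7r and Igll1 did not on either parental array. The list's summed signal was 468 to 635 on tumor arrays, against 249 to 255 on parental arrays, and of its 3 tested probe sets that of Cd79b, which signals for B cell receptors, was called higher, by 1.31 on the log2(signal + 16) scale. With the array number as a block, Cd79a was called higher as well, by 0.97 (adjusted p = 0.0116 in limma, against 0.156 without the block). That fit takes the arrays, not the mice, as the replicates, and it called 7.4% of all probe sets higher.

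What the A1 probe sets can detect bears on every value below. The platform annotation assigns 1419004_s_at and 1437913_at to Bcl2a1a, Bcl2a1b and Bcl2a1d together, and 1450812_at to these and Bcl2a1c. The suffix _s_at marks probes shared by several transcripts, so no value here belongs to a single copy. RefSeq lists Bfl-1 as a synonym of Bcl2a1a. Probes of this platform lie mostly towards the 3′ end of a transcript, probe sequences were not used here, and the labels do not give the species or extent of Bfl-1DC. Whether these probes read the construct's transcript is therefore not settled. On 1419004_s_at the parental cells, which carry the construct, read below the 40th percentile of their arrays.

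The 250 bases upstream of the RefSeq start of each of the 3 copies that 1419004_s_at names are shown because the copies share this probe set, and the windows show how alike they are. All are from RefSeq on build GRCm38.p6, on mouse chromosome 9, 5′ to 3′ on the gene's own strand. Capitals mark bases that differ between aligned copies or that fall in a gap inside an alignment. Bases at the ends of a window that run past another copy's window are not capitalised for that reason. Bcl2a1a is at chr9:88956670-88956919 on the plus strand, Bcl2a1b at chr9:89199023-89199272 on the plus strand, and Bcl2a1d at chr9:88731851-88732100 on the minus strand.
Bcl2a1a: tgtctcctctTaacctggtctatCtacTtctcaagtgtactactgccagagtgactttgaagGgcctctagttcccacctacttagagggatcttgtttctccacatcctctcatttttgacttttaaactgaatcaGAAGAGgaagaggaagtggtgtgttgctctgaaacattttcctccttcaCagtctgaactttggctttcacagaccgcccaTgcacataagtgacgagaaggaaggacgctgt
Bcl2a1b: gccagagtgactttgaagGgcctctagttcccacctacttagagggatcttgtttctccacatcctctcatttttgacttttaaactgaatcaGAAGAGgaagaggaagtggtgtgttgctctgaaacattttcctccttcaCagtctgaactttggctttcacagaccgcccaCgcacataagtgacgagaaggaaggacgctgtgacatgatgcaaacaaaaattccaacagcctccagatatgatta
Bcl2a1d: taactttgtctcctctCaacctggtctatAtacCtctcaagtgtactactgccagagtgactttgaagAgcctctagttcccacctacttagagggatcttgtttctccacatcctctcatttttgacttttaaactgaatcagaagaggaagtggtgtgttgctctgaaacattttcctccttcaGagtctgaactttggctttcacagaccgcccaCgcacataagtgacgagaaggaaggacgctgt
Bcl2a1a and Bcl2a1b were identical at 205 of 206 aligned bases (99.5%), and the Bcl2a1b window sits further downstream because its annotated start does. Bcl2a1a and Bcl2a1d were identical at 238 of 244 aligned bases (97.5%), with 6 bases unmatched in a gap, a run of GAAGAG that Bcl2a1a and Bcl2a1b carry and Bcl2a1d lacks in the alignment. Bcl2a1b and Bcl2a1d were identical at 198 of 200 aligned bases (99.0%), with the same 6 unmatched. The letters GAGGAAGT, a core of the kind bound by ETS factors such as PU.1, occurred 1 time in each copy, counting both strands, and in 2.44% of 32851 RefSeq windows of the same length. The NF-kB consensus had no match in any of the 3 windows and occurred in 7.25% of all windows. Both motifs were chosen after the sequences had been seen, and a match is a description of letters, not a binding site.

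The A1 signal on 1419004_s_at was higher in all 3 tumors than in parental cells. Probe set 1419004_s_at read 254 and 847 on the arrays of tumor 1, 408 and 779.8 on those of tumor 2, and 175 and 598 on those of tumor 3, against 12.9 and 15.6 in parental cells. Every tumor array lay above both parental arrays. Over all probe sets tested, the means of the 3 tumors lay above both for 18.4%. The mean signal was 510.3 ± 110 over tumors (SD, n = 3) and 14.2 ± 1.91 over parental arrays (SD, n = 2). Both parental values lay below the 40th percentile of their arrays, so the fold is given as a bound. The tumor mean was 32.3 times the mean of that percentile over the parental arrays, 15.8. Its ratio to the parental mean is therefore at least 32.3. On the log2(signal + 16) scale, where folds of low signals are understated, the fitted difference of the tumors was 3.92 ± 0.24 (SE), with an adjusted p of 0.00217 in limma after Benjamini-Hochberg adjustment over 14893 probe sets. The probe set exceeded the 40th percentile on 6 of 6 tumor arrays and 0 of 2 parental arrays, so it entered the test through the tumors alone.

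Across all probe sets tested, 0.497% were called higher in tumors and 0.201% lower at an adjusted p below 0.05. The corresponding counts were 74 and 30. Of the 21 member probe sets that passed the filter, 1 was called higher, the A1 probe set, and none lower, with 4 at an unadjusted p under 0.05, beside 15.5% of all probe sets tested. The A1 call rested on both parental arrays: the change was 3.86 without the first (adjusted p = 0.0567 in limma) and 3.99 without the second (adjusted p = 0.0599). With the first array of each source alone it was 3.27 (adjusted p = 0.214), and with the second array alone 4.57 (adjusted p = 0.0352).

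Taken tumor by tumor, the A1 change was 3.999 in tumor 1 (adjusted p = 0.0238 in limma), 4.27 in tumor 2 (adjusted p = 0.0265) and 3.50 in tumor 3 (adjusted p = 0.0419), each ± 0.66 (SE). These tests use the spread between duplicate arrays, not between mice. In each tumor the call was lost with no filter on low signals (adjusted p = 0.0588, 0.0756 and 0.0950 in limma for tumors 1, 2 and 3), with a pseudocount of 64 (0.0576, 0.0837 and 0.114) and without either parental array (0.113 to 0.183). The background of calls was 1.73% higher and 1.2% lower in tumor 1, 0.974% higher and 0.302% lower in tumor 2, and 1.67% higher and 0.47% lower in tumor 3. The F test for a difference among the 3 tumors, which called 1.26% of probe sets, did not call A1 (adjusted p = 0.900). Duplicates were wide apart within each tumor: the second array exceeded the first by 1.67 log2 units in tumor 1, 0.91 in tumor 2 and 1.69 in tumor 3, but by 0.13 in parental cells.

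The remaining 2 A1 probe sets stayed below the 40th percentile on every array and were not tested. Probe set 1437913_at read 13.1 and 15.8 on the arrays of tumor 1, 10.4 and 19.7 on those of tumor 2, and 7.21 and 16.5 on those of tumor 3, against 1.49 and 0.763 in parental cells. All 6 tumor arrays were above both parental arrays, though none exceeded its array's 40th percentile. Probe set 1450812_at read 0.725 to 9.24 over tumor arrays and 0.222 to 5.27 over parental arrays, and the groups overlapped.

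**Figure D1:**
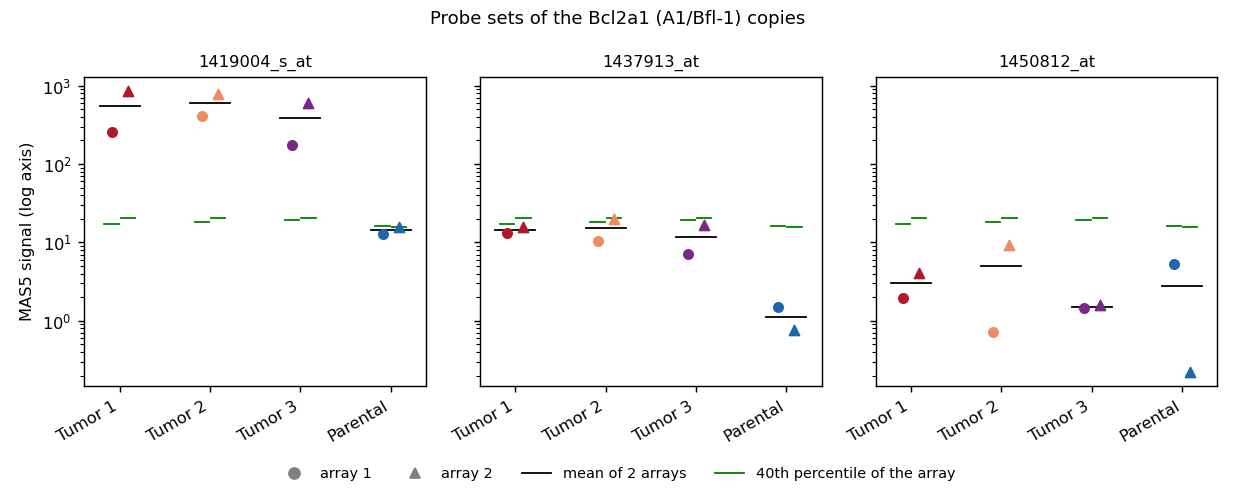
MAS5 signal on a log axis of the 3 probe sets that name Bcl2a1 copies, with tumors 1 to 3 left of the parental cells, circles for the first and triangles for the second array, black bars for the mean of both and green bars for each array's 40th percentile. On 1419004_s_at the tumor arrays lie between 175 and 847 and the parental arrays at 12.9 and 15.6, while the other probe sets stay below the 40th percentile on every array.

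Many markers of blood cells other than pro-B cells were higher in tumors, as A1 was. The summed signal of the neutrophil list was 3785 to 9654 on tumor arrays, against 236 to 791 on parental arrays, and 2 of its 8 tested probe sets were called higher: Mpo, a granule peroxidase of myeloid progenitors, by 6.19, and Ngp, a neutrophil granule protein, by 4.50. The macrophage and monocyte list summed to 1008 to 3744 on tumor arrays and 265 to 1201 on parental arrays. Of its 11 tested probe sets 5 were called higher: Lyz2, Cd14 and all 3 for Ccr2. The 3 tested probe sets of Csf1r, the receptor for the macrophage growth factor, ran the other way, at -0.65, -0.81 and -0.25, and were not called (adjusted p = 0.828, 0.551 and 0.771 in limma). On each of them the second parental array was the highest of the 8. The eosinophil list summed to 3642 to 8221 on tumor arrays, against 38.1 to 44.1 on parental arrays. Of its 4 tested probe sets 2 were called higher: Epx, the eosinophil peroxidase, by 7.05, and Prg2, a granule major basic protein, by 5.78. Epx, Prg2, Cd14 and the 3 Ccr2 probe sets exceeded the 40th percentile on every tumor array and on no parental array. They thus entered the test through the tumors alone, like A1. T cell markers summed to 865 to 2594 on tumor arrays and 62.8 to 79.8 on parental arrays, with Cd3g, part of CD3, called higher by 4.46. With the array number as a block (the fit is described with Bid), the arrays and not the mice are the replicates. It called 7.4% of all probe sets higher, against 0.497% in the fit over mice. In the block fit the probe sets called higher numbered 5 of 8 for neutrophils, 8 of 11 for macrophages and monocytes, 4 of 4 for eosinophils and 2 of 2 for T cells. Of those added by the block, Elane, Cd177, Itgam, Siglecf, Prg3 and Cd3d also exceeded the 40th percentile on tumor arrays alone.

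Not all defining markers were seen: Camp of the neutrophil list, C1qa and C1qc of the macrophage list, Il5ra and Ccr3 of the eosinophil list, and Cd3e, Cd4 and Thy1 of the T cell list did not exceed the 40th percentile on any array. The erythroid list summed to 291 to 1562 on tumor arrays and 954 to 1303 on parental arrays, and the mast cell and basophil list to 75.4 to 8519 on tumor arrays and 43.1 to 860.0 on parental arrays. Pooled over the tumors, neither list had a probe set called in limma, with 0 at an unadjusted p under 0.05 in each, but tumor 1 stood apart. Fcer1a, a chain of the high-affinity IgE receptor, read 5067 and 6654 on the arrays of tumor 1 and 16.3 to 50.9 on those of tumors 2 and 3, against 2.10 and 189 in parental cells, and was called higher in tumor 1 by 6.58 (adjusted p = 0.0117 in limma). The erythroid transcription factors Klf1 and Gata1 were called lower in tumor 1, at -2.01 (adjusted p = 0.0213) and -2.10 (adjusted p = 0.01999). The F test among tumors called all 3 tested erythroid probe sets and, of 3 mast cell and basophil probe sets, that of Fcer1a; with the array number as a block it called all 3 of each list. With the block, which takes the arrays as the replicates, the pooled Klf1 change was also called lower (adjusted p = 0.0384 in limma, against 0.668 over mice). Its change was -2.01 in tumor 1 but 0.22 in tumor 2 and -0.17 in tumor 3. Like A1, the neutrophil, macrophage, eosinophil, T cell, and mast cell and basophil sums were higher on the second array of every tumor. The erythroid sum was lower there in every tumor, and the pro-B sum was higher in tumors 2 and 3 alone. Same-numbered arrays of different sources deviated together over all tested probe sets (r = 0.435 to 0.594). The part of these markers in the A1 result was not tested. In such bulk RNA, more cells of a type cannot be told apart from more RNA per cell.

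**Figure D2:**
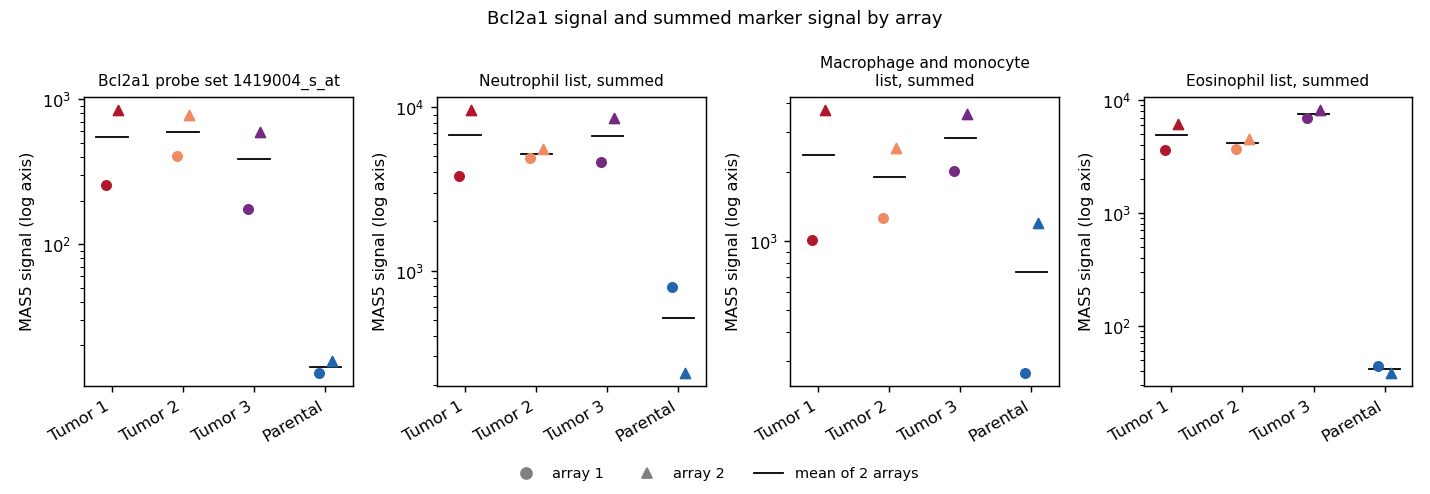
Signal of 1419004_s_at and the summed signal of the neutrophil, macrophage and monocyte, and eosinophil marker lists on log axes, by array, with tumors 1 to 3 left of the parental cells. The summed eosinophil signal is 3642 to 8221 on tumor arrays, against 38.1 to 44.1 on parental arrays, and the tumor arrays of 1419004_s_at all exceed the parental ones.

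Over the 8 arrays, the probe sets of a single gene whose log2(signal + 16) most resembled that of 1419004_s_at were those of Stt3b, a catalytic subunit of the oligosaccharyltransferase (r = 0.993), Tmem38b, an intracellular cation channel (r = 0.986), and Ramp1, which pairs with the calcitonin receptor-like receptor (r = 0.986). They were higher in tumors by 1.12, 1.37 and 2.10, all called. Their rise follows from how they were chosen, by likeness to a probe set that separates tumors from parental cells, and is no separate result. Arrays share a source in pairs, so these correlations describe the 8 arrays and have no test.

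The remaining pro-survival members gave no call. Mcl1, a short-lived survival protein that many blood cells need, had 6 probe sets whose change lay between -0.40 and -0.08, with adjusted p of 0.404 to 0.865 in limma. Its probe set 1448503_at read 1270.1 and 1709.7 on the arrays of tumor 1, 1417 and 1523 on those of tumor 2, and 1389 and 1277 on those of tumor 3, against 1320.2 and 1719.8 in parental cells, and the groups overlapped. Probe set 1456381_x_at had the lowest change, -0.40 ± 0.21 (SE), with 790.0 ± 63.2 over tumors (SD, n = 3) and 1063 ± 285 over parental arrays (SD, n = 2), and each tumor's mean was below both parental arrays. The same held for 15.8% of all probe sets tested.

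Bcl2, the founding survival gene of the family, had 1 probe set, 1422938_at. It read 139 and 90.6 on the arrays of tumor 1, 147 and 102 on those of tumor 2, and 162 and 113 on those of tumor 3, against 185 and 125 in parental cells. The change was -0.28 ± 0.20 (SE, adjusted p = 0.552 in limma). The second array was lower than the first in all 4 sources, by 0.47 to 0.54 log2 units, which is more than the difference between tumors and parental cells.

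Bcl2l1, which encodes Bcl-XL and its shorter pro-death splice form, had 4 probe sets that did not move together. Probe set 1420888_at read 155 and 190.4 on the arrays of tumor 1, 151 and 159.6 on those of tumor 2, and 180.4 and 107 on those of tumor 3, against 156 and 94.5 in parental cells, a change of 0.31 ± 0.23 (SE). Probe set 1420887_a_at differed by 0.04 ± 0.16. Probe set 1426191_a_at read 11.4 to 18.7 over tumor arrays, below both parental arrays at 19.7 and 27.9, a change of -0.37 ± 0.16, but it exceeded the 40th percentile on 2 parental arrays and 1 tumor array. None was called (adjusted p 0.346 to 0.936), the correlations between the tested probe sets over 8 arrays ran from -0.656 to -0.247, and 1426050_at stayed below the 40th percentile on every array.

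Of the effectors among the members, Bax and Bak1, Bak1 was the one with probe sets annotated to it. Probe set 1418991_at read 115 to 151 over tumor arrays and 92.1 and 152 in parental cells, a change of 0.14 ± 0.22 (SE, adjusted p = 0.801 in limma). Probe set 1425716_s_at read 26.8 and 5.61 on the arrays of tumor 1, 8.98 and 16.5 on those of tumor 2, and 5.94 and 12.5 on those of tumor 3, against 30.7 and 21.5 in parental cells. Its change was -0.59 ± 0.18 (SE), with an unadjusted p of 0.0146 and an adjusted p of 0.206, and it exceeded the 40th percentile on 2 parental arrays and 1 tumor array. The correlation between both Bak1 probe sets over the 8 arrays was 0.041.

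Bid, the BH3-only protein that caspase-8 cleaves to link death receptors to mitochondria, read lower in every tumor on both of its probe sets. Probe set 1417045_at read 549 and 408 on the arrays of tumor 1, 406 and 373 on those of tumor 2, and 365 and 401 on those of tumor 3, against 631 and 687 in parental cells. Probe set 1448560_at read 212 and 158 on the arrays of tumor 1, 146 and 131 on those of tumor 2, and 112 and 121 on those of tumor 3, against 258 and 284 in parental cells. All 6 tumor arrays lay below both parental arrays on each probe set, and the correlation of the probe sets over 8 arrays was 0.978. Over all probe sets tested, the means of the 3 tumors lay below both parental arrays for 15.8%.

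The Bid change was -0.65 ± 0.17 on 1417045_at (SE, adjusted p = 0.156 in limma) and -0.85 ± 0.21 on 1448560_at (adjusted p = 0.146), so neither passed over mice. Same-numbered arrays of different sources deviated together, and with the array number as a block the adjusted p was 0.0289 and 0.0121. That fit takes the arrays as the replicates and called 1952 probe sets, 7.4% higher and 5.71% lower. In tumor 3 alone, 1448560_at fell by 1.12 on the log2 scale (adjusted p = 0.0335 in limma; 0.208 and 0.205 without its second and its first array, 0.125 and 0.185 without the first and the second parental array, and 0.0669 without either tumor 2 array). With a pseudocount of 1 its adjusted p was 0.0570. The same probe set differed by -0.53 in tumor 1 (adjusted p = 0.215) and -0.90 in tumor 2 (adjusted p = 0.102; 0.0318 with the array number as a block). On 1417045_at the change in tumor 3 was -0.76 (adjusted p = 0.118; 0.0416 with the block). Among the members, 1448560_at had the lowest p in the F test among tumors, 0.0492, with an adjusted p of 0.425.

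The probe sets of a single gene most like 1448560_at over the 8 arrays were Ppp2r5c, a regulatory subunit of protein phosphatase 2A (r = 0.979), the other Bid probe set, and Marchf5, a mitochondrial ubiquitin ligase (r = 0.969). The change of Ppp2r5c was -0.67 (adjusted p = 0.156 in limma) and that of Marchf5 -0.42 (adjusted p = 0.264). Both were chosen for their likeness to 1448560_at, so their direction is no separate result.

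Bcl2l11 encodes Bim, the BH3-only protein through which loss of cytokine kills many blood cells. Its 5 probe sets had differences of -0.87 to -0.40, with adjusted p of 0.369 to 0.548 in limma. Probe set 1435448_at read 70.7 and 157 on the arrays of tumor 1, 176 and 212 on those of tumor 2, and 264 and 249 on those of tumor 3, against 179.9 and 411 in parental cells. Tumor 1 was low and tumor 3 lay inside the parental range. Probe set 1456005_a_at read 67.7 and 123 on the arrays of tumor 1, 98.5 and 138 on those of tumor 2, and 155 and 148 on those of tumor 3, against 135 and 378 in parental cells.

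The parental duplicates of Bcl2l11 differed by 0.57 to 1.38 log2 units, the second array being higher on all 5 probe sets. The change of 1456005_a_at was -1.56 without the first parental array and -0.17 without the second, and that of 1435448_at was -1.16 and -0.036. In tumor 1 the change of 1435448_at was -1.24 (adjusted p = 0.172 in limma; 0.0374 with the array number as a block) and that of 1456005_a_at -1.18 (adjusted p = 0.211; 0.0466 with the block).

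Bbc3, which encodes the p53-induced BH3-only protein Puma, read 141 and 132 on the arrays of tumor 1, 147 and 155 on those of tumor 2, and 116 and 120.4 on those of tumor 3, against 142 and 233 in parental cells. The change was -0.40 ± 0.23 (SE, adjusted p = 0.454 in limma). The second parental array stood above all others, and the first lay among the tumor arrays.

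**Figure D3:**
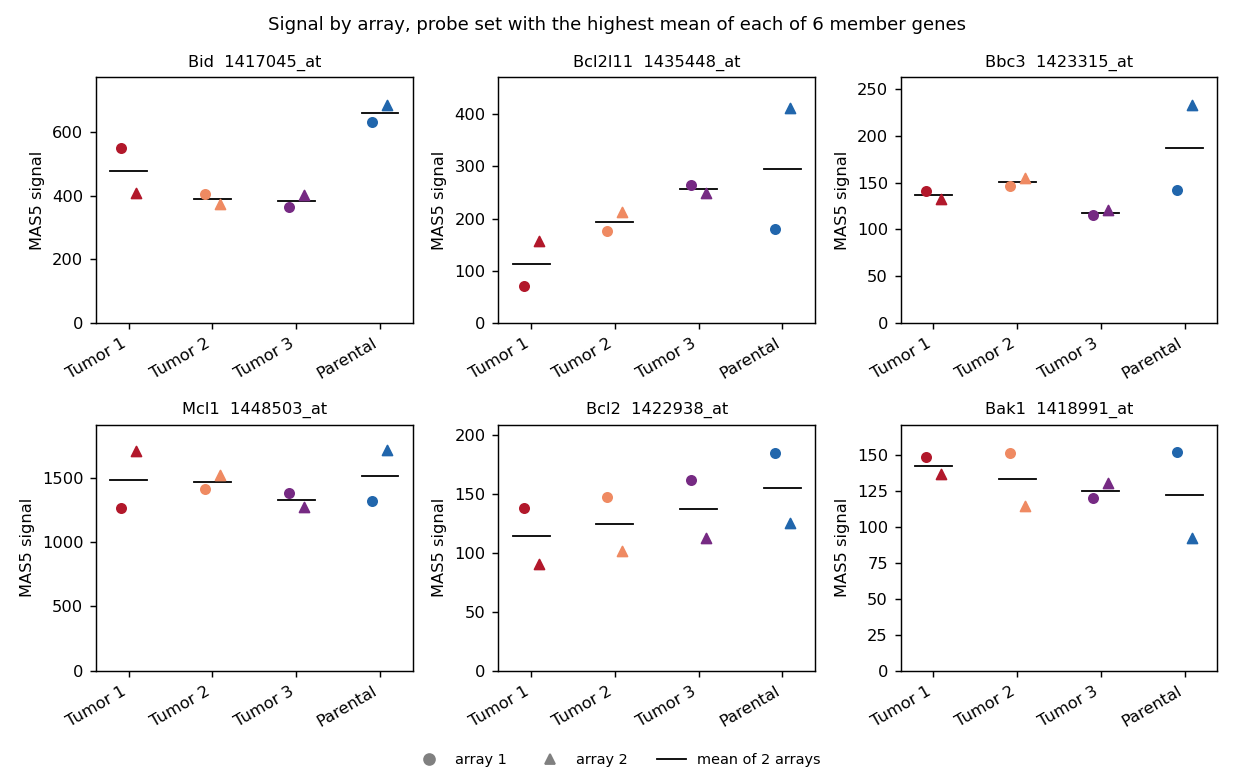
MAS5 signal by array, on linear axes from 0, of the probe set with the highest mean for each of 6 member genes, with tumors 1 to 3 left of the parental cells, circles for the first and triangles for the second array and bars for the mean. Bid is the panel in which all tumor arrays lie below both parental arrays, 365 to 549 against 631 and 687.

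Of the 21 tested member probe sets, 17 had a change below 0 and 4 above, with a median of -0.38. Over all 14893 tested, 48.9% were below 0 and the median was 0.0080. All probe sets of Mcl1 and Bcl2l11 were among those below 0, and on each of them the second parental array was higher than the first. For 5 of the 21 the 3 tumor means lay below both parental arrays, beside 15.8% of all probe sets, and for 1 they lay above, beside 18.4%. Several probe sets read the same transcript, so these counts are not of independent genes. Between tumors the F test called none of the 21, with 1448560_at alone at an unadjusted p under 0.05, beside 11.7% of all probe sets.

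**Figure D4:**
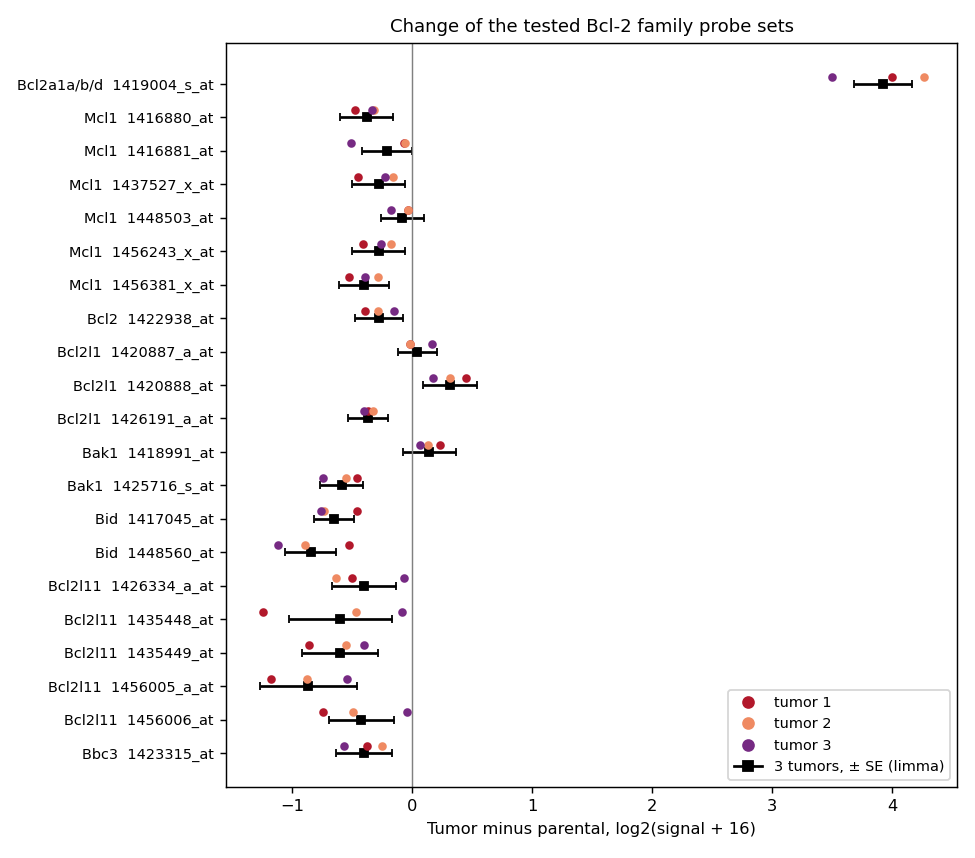
Change of each tested member probe set, tumor minus parental on the log2(signal + 16) scale, for each tumor (coloured points) and for the 3 tumors together (black squares with the SE from limma). The A1 probe set lies at 3.92 and the other probe sets between -0.87 and 0.31.

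Genes that work beside these members gave no call in tumors against parental cells in limma. At an unadjusted p under 0.05 there was 1 probe set among the other Bcl-2 family genes, 2 among the apoptosome and caspase genes, 0 in the death receptor arm and 1 among the regulators, of 8, 25, 10 and 25 tested, beside 15.5% of all probe sets. Of the other Bcl-2 family genes, 12 of 16 had a probe set of their own and 7 genes were tested with 8 probe sets, with a median change of 0.04. Bcl2l14, a relative known as Bcl-G, had the lowest p, with 11.2 to 29.4 over tumor arrays and 6.31 and 8.61 in parental cells, a change of 0.64 (adjusted p = 0.134 in limma). This probe set, 1424814_a_at, exceeded the 40th percentile on 3 tumor arrays and 0 parental arrays, so it entered the test through the tumors alone. The other Bcl2l14 probe set, 1429347_at, stayed below that percentile on every array, and its groups overlapped. Hrk, a BH3-only protein first studied in neurons, differed by 0.49 (adjusted p = 0.376; 0.0387 with the array number as a block), and Bad, a BH3-only protein controlled by phosphorylation, by -0.33 on 1416583_at (adjusted p = 0.488). The other Bad probe set, 1416582_a_at, ran the opposite way, at 0.15 (adjusted p = 0.702). Bcl2l10, Pmaip1, Bik, Bmf and Bcl2l15 did not exceed the 40th percentile on any array.

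Bnip3l, a mitophagy receptor also called Nix, shared its 3 probe sets with a pseudogene, and its values therefore cannot be assigned to the gene alone. They were singled out after their values had been seen. Probe set 1416922_a_at read 521 and 773 on the arrays of tumor 1, 774 and 974 on those of tumor 2, and 625 and 777 on those of tumor 3, against 1253 and 1312 in parental cells. The 3 changes were -0.80, -0.78 and -0.96 (adjusted p = 0.129, 0.203 and 0.156 in limma; 0.0114, 0.0223 and 0.0117 with the array number as a block), and all 3 probe sets had every tumor mean below both parental arrays. Of all probe sets tested, 15.8% had that position.

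Of 18 genes of the apoptosome, the caspases and their inhibitors, 15 were tested with 25 probe sets, with a median change of -0.07. Dffa, the inhibitor of the caspase-activated nuclease, differed by -0.51 (adjusted p = 0.241 in limma; 0.0367 with the array number as a block) and Casp6, an executioner caspase, by -0.73 (adjusted p = 0.317; 0.0228 with the block). Casp2, an initiator caspase, differed by -0.39 (adjusted p = 0.327). The F test among tumors called Casp6 with the block (adjusted p = 0.0481) and not without it.

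In the death receptor arm upstream of Bid, 6 of 8 genes were tested with 10 probe sets, with a median change of 0.03. Fadd, the adaptor that recruits caspase-8, differed by -0.35 (adjusted p = 0.546 in limma), and Fas, the receptor itself, by 0.37 (adjusted p = 0.598). Cflar, which blocks caspase-8 activation, differed by -0.31 on 1424996_at (adjusted p = 0.551). Its other tested probe sets differed less, by -0.12 on 1425686_at, -0.02 on 1425687_at and -0.08 on 1449317_at. Of 15 regulators of the family's transcription or turnover, 12 were tested with 25 probe sets, with a median of -0.07. Vdac2, a mitochondrial channel that binds Bak, read 1569 to 2376 over tumor arrays and 1292 and 1413 in parental cells, a change of 0.53 (adjusted p = 0.214; 0.0250 with the block). Stat5a, a transcription factor downstream of IL-3, differed by -0.49 on 1450259_a_at (adjusted p = 0.403 in limma, and 0.0481 with the block). The other Stat5a probe set, 1421469_a_at, differed by -0.17 and was called in neither fit (adjusted p = 0.679, and 0.495 with the block). Trp73, a p53 relative, differed by 0.34 (adjusted p = 0.426) on a probe set above the 40th percentile on 2 tumor arrays and 0 parental arrays.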

How the data were processed

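Total RNA of 8 arrays was measured, and the deposited table holds MAS5 signal, a linear intensity per probe set, as the authors made it with MAS5 per the submitters' processing notes; the MAS5 version is not given in the sources used here. Of 22690 probe sets, 64 controls were left out. Symbols came from the platform annotation: 20380 probe sets had 1 symbol, 691 several and 1555 none, and 20364 matched RefSeq. Signals were transformed as log2(signal + 16) without further scaling. Probe sets above the 40th percentile of their own array on at least 2 arrays were fitted with limma 3.58.1 (R 4.3.3), two-sided, with Benjamini-Hochberg adjustment and a threshold of 0.05. The main test set 3 tumors, each the mean of 2 arrays, against 2 parental arrays. Single tumors and the F test used all 8 arrays with a mean per source and 4 residual degrees of freedom. The labels do not say that duplicate arrays came from separate cultures or extractions, so those p-values may measure technical spread. Same-numbered arrays deviated together (r = 0.435 to 0.594 in the 6 pairs of sources, over 14893 probe sets), so the array number was also fitted as a block over all 8 arrays. Alternatives were other pseudocounts, filters and scalings, 1 probe set a gene, the block, arrays of 1 number, and each array or tumor left out. The named genes were all member probe sets, up to 3 genes of the lowest p in each pathway list, up to 3 examples of each marker list, and the 3 probe sets most correlated with 2 members. Members and lists were chosen with earlier results of these data known. The scripts were tested on simulated data.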

Additional observations from a re-analysis of the deposited data

How the results depend on the processing

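Of 434 alternative values of the members' changes, 12 had the opposite sign, all of probe sets that were not called. With the first array of each source alone the change was 0.039 for 1448503_at, -0.098 for 1420887_a_at and -0.118 for 1418991_at, and 1420887_a_at was at -0.014 after quantile normalization and -0.068 after median centring. Leaving out 1 array or tumor gave -0.176 to 0.463 for 1418991_at, -0.067 to 0.147 for 1420887_a_at, -0.0080 to 0.630 for 1420888_at, -0.583 to 0.021 for 1437527_x_at, -0.270 to 0.107 for 1448503_at and -0.587 to 0.026 for 1456243_x_at. The A1 change on 1419004_s_at was 3.27 with the first arrays alone, no longer called, and 3.75 to 4.13 when an array or tumor was left out, losing the call without either parental array.

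In single tumors the A1 call was lost with a pseudocount of 64 (2.78, 3.01 and 2.34 in tumors 1, 2 and 3) and with no filter (3.999, 4.27 and 3.50), and in tumor 3 also with a filter at the 60th percentile (3.50, adjusted p = 0.0509 in limma) and quantile normalization (3.38). Leaving out 1 array gave 3.16 to 4.84 in tumor 1, 3.81 to 4.72 in tumor 2 and 2.66 to 4.34 in tumor 3. The call was lost in each tumor without either parental array (adjusted p = 0.113 to 0.183), in tumor 1 without its second array (0.0902), in tumor 2 without either of its arrays (0.0752 and 0.184), and in tumor 3 without either of its arrays (0.0543 and 0.269) or either tumor 2 array (0.0592).

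Members called numbered 1 in tumors against parental cells, 0 with 1 probe set a gene, which leaves out probe sets of several symbols and thus A1, 3 with the replicate block (A1 and both Bid probe sets), 0 with the first arrays alone and 0 to 1 when an array or tumor was left out. Over all probe sets, 104 were called, 45 with a pseudocount of 64, 22 with no filter, 66 with 1 probe set a gene, 1952 with the replicate block, 5 and 12 with the first and the second arrays alone, and 9 to 94 when 1 was left out. In tumor 1, 1 member was called, 0 with a pseudocount of 64, with no filter or with 1 probe set a gene, 3 with the replicate block and 0 to 1 by leaving out an array. Of all probe sets 435 were called there, 281 with no filter, 2049 with the block and 105 to 321 by leaving out an array. In tumor 2 the same settings gave 1 member, 0, 0, 0, 2 and 0 to 1, and 190 probe sets in all, 813 with the block and 75 to 202 by leaving out an array. In tumor 3, 2 members were called, 1 with a pseudocount of 1 or 64, no filter, a filter at the 60th percentile or quantile normalization, 0 with 1 probe set a gene and 0 to 2 by leaving out an array, and 318 probe sets in all, 1360 with the block and 122 to 318 by leaving out an array. The F test among tumors called 188 probe sets, 88 with a pseudocount of 1, 87 with no filter, 787 with the block and 53 to 136 by leaving out an array, and no member under any of these settings. The cause of these shifts was not tested beyond what each setting leaves out.

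Higher calls made up 71.2% of those in tumors against parental cells, 60.4% after median centring, which moved the median change of all probe sets to -0.100 from 0.0080, and 65.9% after quantile normalization. The numbered arrays give a paired fit whose other calls are beside the results. The design holds 2 parental arrays of 1 line, and signals near the 40th percentile bound what A1, Bak1 1425716_s_at and Bcl2l1 1426191_a_at can show.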
